A study of Mus musculus with 24 samples.

Results

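The mRNAs of the 2 corticosteroid receptors and of 8 genes that glucocorticoids induce were followed in the hippocampus of mice that lost the lysine acetyltransferase CBP in excitatory neurons and were housed with or without environmental enrichment. The 10 genes were chosen by symbol as known members of this pathway, with earlier results of these data known. They are 10 of the 55471 genes in the count table. All 10 were found, and all 10 passed the filter on low counts in each of the 3 fits used. The mice were females of the strain C57BL/6 in the labels (C57BL/6J in the methods), between 3 and 6 months of age. The 4 groups of 3 mice were control littermates in standard cages (SC), CBP-ifKOs in SC, control littermates in an enriched environment (EE) and CBP-ifKOs in EE. CBP-ifKOs carried floxed alleles of Crebbp, the gene of CBP, with a tamoxifen-inducible Cre under the Camk2a promoter. The controls lacked the Cre transgene, and both genotypes received tamoxifen. Because Cre was active in forebrain excitatory neurons only, CBP remained intact in glia, vessels and interneurons of the same tissue. The EE boxes were larger than the cages, held more mice and combined wheel access with objects that were rearranged.

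Corticosterone, the main glucocorticoid of the mouse, crosses the blood-brain barrier and binds 2 nuclear receptors. The mineralocorticoid receptor, encoded by Nr3c2, binds it with high affinity and is abundant in hippocampal neurons. The glucocorticoid receptor, encoded by Nr3c1, has a lower affinity, is present in most cell types and becomes occupied at the daily peak and during stress. Both enter the nucleus when bound and contact DNA at glucocorticoid response elements (GREs), where they recruit coactivators, among which are the acetyltransferases CBP and p300. The induced genes serve different ends. Fkbp5 encodes a cochaperone that lowers the hormone affinity of the receptor, Tsc22d3 encodes the anti-inflammatory protein GILZ, Sgk1 encodes a kinase that acts on ion channels, and Zbtb16 encodes the zinc finger repressor PLZF. Plin4 encodes a lipid droplet protein, Pdk4 a kinase that inhibits pyruvate dehydrogenase, Sult1a1 a sulfotransferase of phenols, and Cdkn1a the cell cycle inhibitor p21, which is also a classic target of p53.

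The 12 libraries held between 26874015 and 37448388 counts. The control libraries held between 26874015 and 27971488, and the CBP-ifKO libraries between 28582210 and 37448388, so depth and genotype cannot be told apart. In addition, all counts of the 6 CBP-ifKO libraries were even numbers, whereas between 54.0% and 55.1% of the nonzero counts of each control library were odd, and the members' fold changes and tests and the receptor ratio were computed again with these counts halved. Whether reads of these libraries were counted more than once is not given in the sources used here. Halved, their totals would be between 14291105 and 18724194, below those of the controls. The members had between 51 and 8352 counts in a mouse as deposited, so none was near the detection floor of 3 counts. Crebbp, the targeted gene, lay between 44.5 and 51.5 CPM (counts scaled to a common library size with TMM factors) in the CBP-ifKOs and between 69.6 and 81.9 CPM in the controls, so the genotypes did not overlap. Its log2 fold change was -0.58 ± 0.06 in SC (adjusted p = 0.000542, edgeR's quasi-likelihood test) and -0.64 ± 0.06 in EE (adjusted p = 0.000407). The excitatory neuron markers Slc17a7, Prox1, Neurod6 and Nrgn were present in every mouse, with at least 2516 counts each. One library stood apart in markers of another tissue. Control EE replicate 1 had 1128 CPM of the choroid plexus gene Ttr, against at most 32.3 CPM in the other 11 mice. None of the 10 members had its highest value in that mouse. In whole tissue, fewer cells of a type and less RNA per cell cannot be told apart.

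On the scale of CPM per kilobase of exon, which allows levels to be compared between genes, Nr3c2 was the most abundant of the 10 mRNAs. Its mean over the 12 mice was 33.0, and its lowest mouse, at 26.3, lay above the highest value of Tsc22d3, which was 20.8. Tsc22d3, Sgk1 and Nr3c1 followed with means of 14.8, 13.7 and 12.7, and their ranges overlapped, so that their order did not hold in every mouse. Zbtb16, at 8.98, was above Fkbp5, at 6.77, in all 12 mice, although their ranges over the mice overlapped. Sult1a1 and Pdk4 were close, with means of 3.77 and 3.53, and Sult1a1 was the higher of the pair in 7 of 12 mice. Cdkn1a and Plin4 were the least abundant, with means of 1.76 and 0.583.

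Nr3c2 fell in the CBP-ifKOs when both housings were considered together, and Nr3c1 was lower by a smaller amount that did not pass the test. In SC, Nr3c2 stood at 218, 220.1 and 212 CPM in the controls and at 173, 192 and 209 CPM in the CBP-ifKOs. In EE it stood at 222, 276 and 239 CPM in the controls and at 170.0, 223 and 209.7 CPM in the CBP-ifKOs. The groups did not overlap in SC, whereas in EE 1 CBP-ifKO lay just above the lowest control. The log2 fold change of CBP-ifKOs over controls was -0.23 ± 0.07 (SE, n = 6 against 6) averaged over the housings, with an adjusted p of 0.0270 in edgeR's quasi-likelihood test. It was -0.18 ± 0.07 in SC (adjusted p = 0.149) and -0.28 ± 0.10 in EE (adjusted p = 0.150), where n was 3 against 3. DESeq2's Wald test gave an adjusted p of 0.0340 for the EE mice. The gene lies at chr8:76899442-77245012 on the plus strand of GRCm38, and 3.82% of its exonic bases are shared with Gm10649 on the opposite strand.

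The averaged call for Nr3c2 depended on single mice. It was lost without CBP-ifKO SC replicate 1 (log2 fold change -0.20, adjusted p = 0.0749), CBP-ifKO SC replicate 2 (-0.24, adjusted p = 0.0544), Control EE replicate 2 (-0.19, adjusted p = 0.0542) or CBP-ifKO EE replicate 1 (-0.18, adjusted p = 0.0552) in the same edgeR test. Without Control EE replicate 1, the library with choroid plexus transcripts, the call held (-0.27, adjusted p = 0.0144), and with the CBP-ifKO counts halved it held as well (-0.24, adjusted p = 0.0269). In each of the 12 fits that left out 1 mouse, the fold change stayed between -0.28 and -0.18.

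Nr3c1 varied less between mice of a group than most members, with a standard deviation of 0.10 on the log2 scale, against a median of 0.13 over all tested genes. In SC it stood at 107, 117 and 95.8 CPM in the controls and at 94.6, 94.1 and 95.5 CPM in the CBP-ifKOs, and the highest CBP-ifKO lay just under the lowest control. In EE the controls had 96.0, 108 and 89.0 CPM and the CBP-ifKOs 89.8, 91.8 and 94.1 CPM, so the groups overlapped. The averaged log2 fold change was -0.13 ± 0.05 (adjusted p = 0.111, edgeR). It was called in 2 of 18 alternatives, without Control SC replicate 3 (adjusted p = 0.0452) and without a filter on low counts (adjusted p = 0.0400).

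The relation between the receptors was read within each library, as the ratio of Nr3c2 to Nr3c1 per kilobase of exon, which no library scaling can change. The ratio was 2.43 ± 0.19 (SD, n = 3) in SC controls, 2.40 ± 0.22 in SC CBP-ifKOs, 2.99 ± 0.23 in EE controls and 2.59 ± 0.32 in EE CBP-ifKOs. The EE controls had ratios of 2.75, 3.05 and 3.19, all above the SC controls at 2.41, 2.24 and 2.63. Among the CBP-ifKOs the EE values of 2.25, 2.88 and 2.65 overlapped the SC values of 2.17, 2.42 and 2.6. Over both genotypes the log2 ratio was higher by 0.21 in EE, with p = 0.04 in a two-sided exact permutation test of housing within genotype, and p = 0.24 after Benjamini-Hochberg adjustment over the 6 comparisons of the ratio. Leaving out any of 8 of the 12 mice took the unadjusted p to between 0.055 and 0.095. The genotypes differed by -0.12 in log2 ratio (exact permutation p = 0.205). Within 1 genotype or housing the smallest p that 3 against 3 mice allow is 0.1, and the housing difference in controls of 0.30 reached it.

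**Figure D1:**
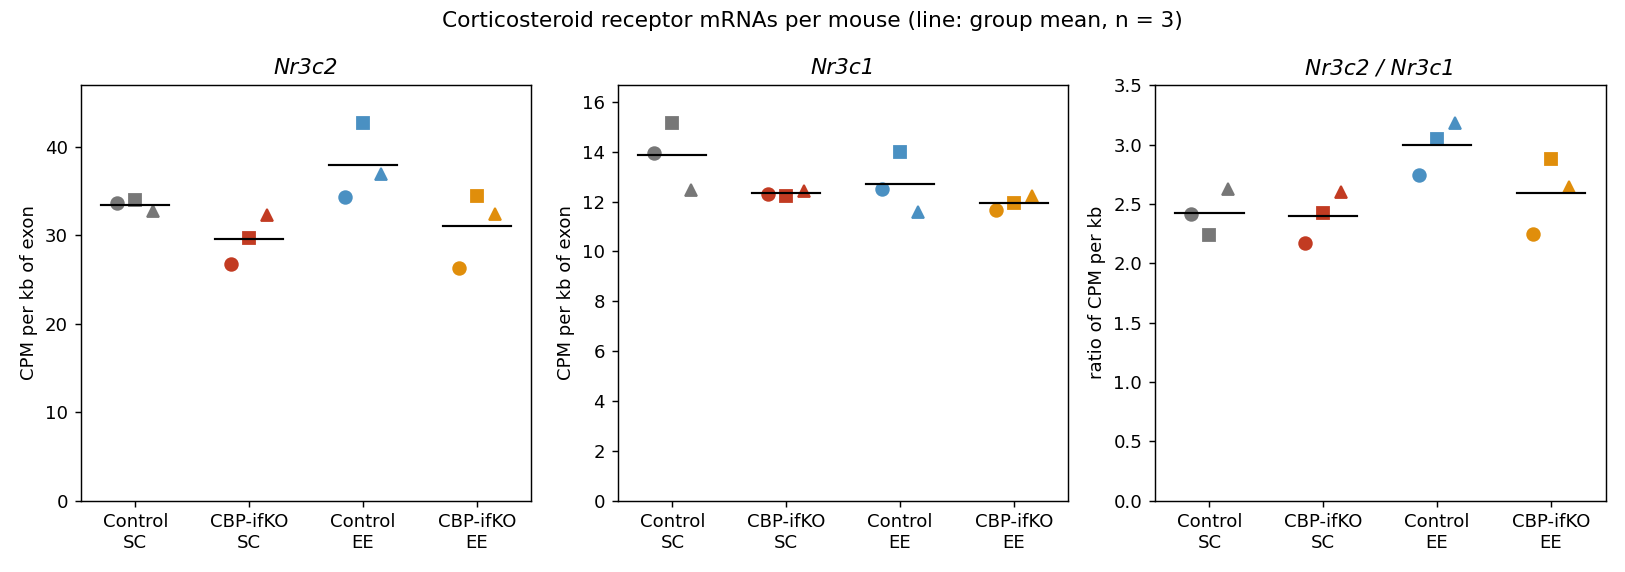
Receptor mRNA in each mouse, as CPM per kilobase of exon for Nr3c2 (left) and Nr3c1 (middle) and as their ratio (right). Symbols mark replicates 1 to 3 and lines the means of 3 mice. The 3 EE controls had ratios between 2.75 and 3.19, above the SC controls.

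Of the 10 members, 2 fell in CBP-ifKOs in the average over housings and none rose, where 10.3% of all 18251 tested genes fell and 16.9% changed in either direction. At an unadjusted p under 0.05 the count was 6 of 10, beside 29.9% of all genes. The second was Cdkn1a, whose fold was the larger. In SC it stood at 6.75, 6.00 and 9.29 CPM in the controls and at 5.97, 5.81 and 4.55 CPM in the CBP-ifKOs. In EE the controls had 8.55, 5.63 and 6.94 CPM and the CBP-ifKOs 4.34, 4.96 and 6.05 CPM. The SC groups did not overlap, but only just, and in EE 1 CBP-ifKO was above the lowest control. The averaged log2 fold change was -0.45 ± 0.13 (adjusted p = 0.0307, edgeR), with -0.44 ± 0.18 in SC and -0.46 ± 0.18 in EE. The call was lost without 6 of the 12 mice. The adjusted p in edgeR was then 0.0984 without Control SC replicate 3, 0.0798 without CBP-ifKO SC replicate 3, 0.0820 without Control EE replicate 1 (the library with choroid plexus transcripts), 0.0554 without Control EE replicate 3, 0.0703 without CBP-ifKO EE replicate 1 and 0.0612 without CBP-ifKO EE replicate 2. The fold change stayed between -0.52 and -0.34 in all 12 such fits. Cdkn1a lies at chr17:29090976-29100727 (GRCm38, plus strand), and 7.68% of its exonic bases overlap AC167363.2 on the opposite strand.

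The sequence before the upstream start site of Cdkn1a is shown because the gene answers to more than one factor. It comes from RefSeq (GRCm38.p6, chr17:29090729-29090978, plus strand), and the capitals mark CATG, any 6 bases and CATG again, a pair of cores spaced as in p53 elements, at bases -48 to -35 from the start site.

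Cdkn1a: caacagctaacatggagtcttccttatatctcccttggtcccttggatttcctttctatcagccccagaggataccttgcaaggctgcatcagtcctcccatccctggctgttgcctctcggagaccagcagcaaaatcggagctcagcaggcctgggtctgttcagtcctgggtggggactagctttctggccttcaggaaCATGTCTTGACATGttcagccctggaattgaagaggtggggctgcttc

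Such a pair occurred in 0.712% of the 32851 RefSeq windows of 250 bases before and 50 bases after a start site. Neither Cdkn1a window held a match to the full GRE palindrome (AGAACA and TGTTCT with any 3 bases between), to its looser form (GNACA and TGTNC with any 3 bases between, in 0.475% of windows), or to the hexamer AGAACA on either strand.

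Within a single housing, edgeR's filtered fits without a block called no member between the genotypes at an adjusted p of 0.05, where 5.52% of 17532 genes were called in SC and 4.57% of 17625 genes in EE. In EE, DESeq2 called Nr3c2, and edgeR with a replicate block called Nr3c2 (adjusted p = 0.0203) and Plin4 (adjusted p = 0.01875). At an unadjusted p under 0.05, 5 of 10 members differed in SC, against 20.5% of all genes, and 4 of 10 in EE, against 19.6%. In SC these were Nr3c1, Nr3c2, Sgk1 and Cdkn1a, lower in CBP-ifKOs, and Tsc22d3, higher. The groups of 4 members did not overlap in SC, all 4 lower in CBP-ifKOs, where 13.8% of genes were lower without overlap. These gaps were narrow. The highest CBP-ifKO and the lowest control had 209 and 212 CPM of Nr3c2, and 95.5 and 95.8 CPM of Nr3c1. For Sgk1 they had 55.2 and 55.6 CPM, and for Cdkn1a 5.97 and 6.00 CPM. In EE the 4 with an unadjusted p under 0.05 were Nr3c2, Pdk4 and Cdkn1a, lower, and Plin4, higher. Pdk4 was the 1 member whose groups did not overlap there, lower in CBP-ifKOs, as were 13.9% of genes. The median log2 fold change of the 10 members was -0.17 in SC and -0.05 in EE, beside medians over all tested genes of -0.00 and 0.01.

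**Figure D2:**
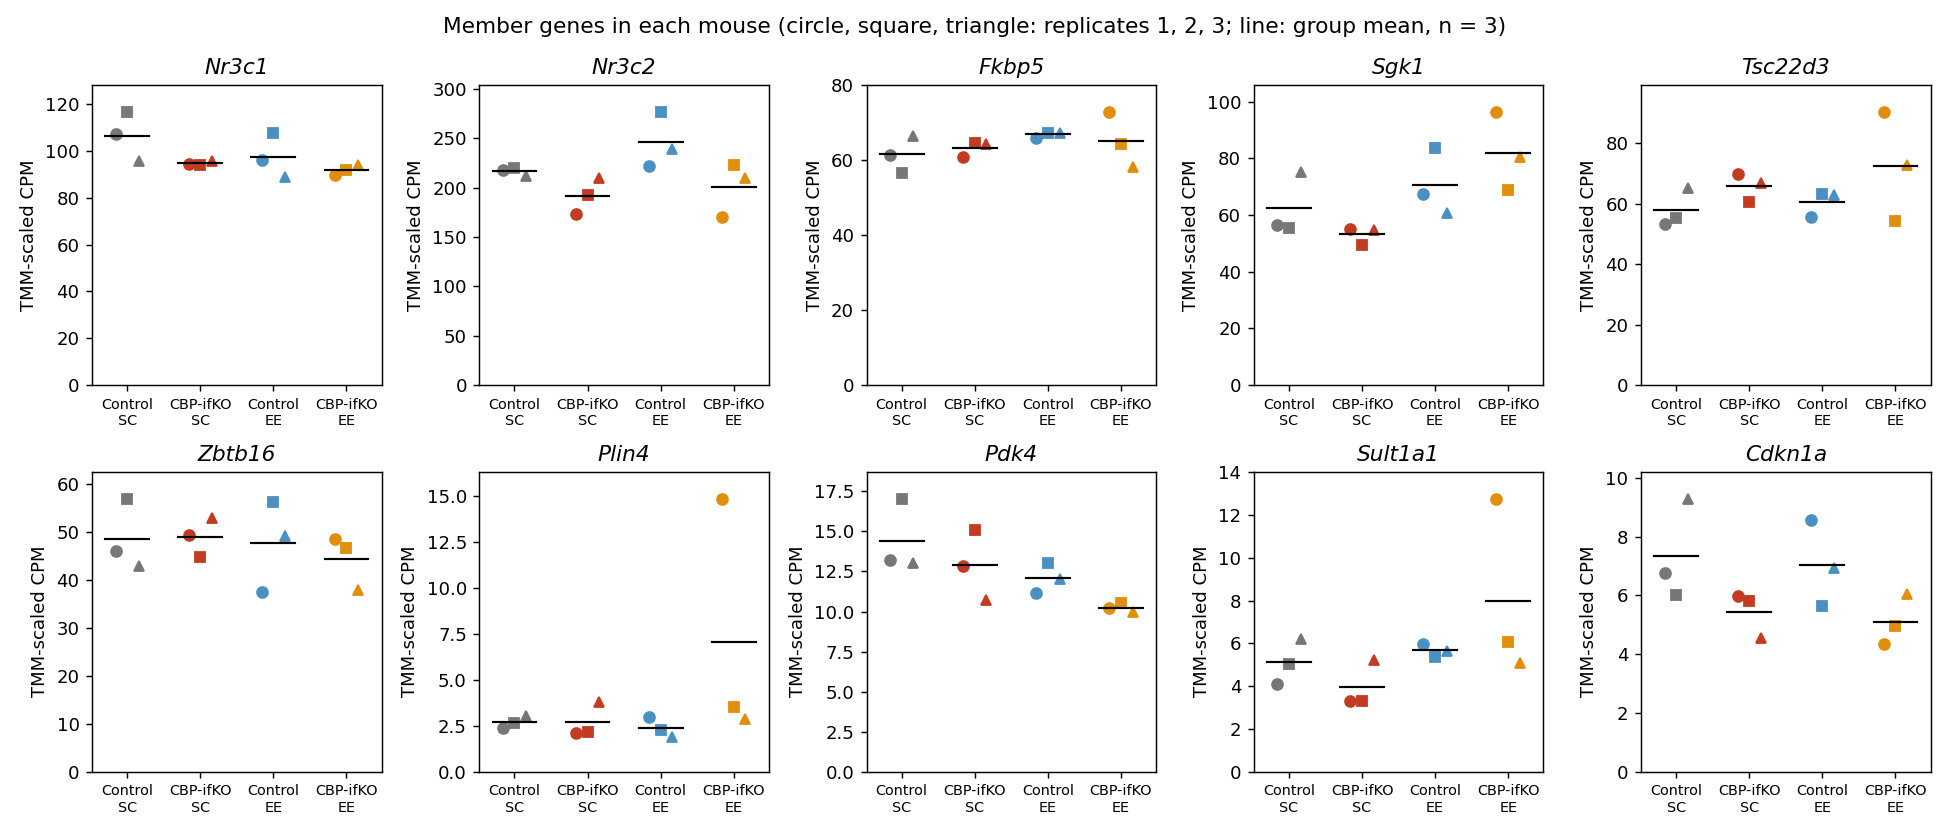
CPM of the 10 members in each of the 12 mice, on axes that start at 0, with lines at the means of 3 mice and symbols for replicates 1 to 3. CBP-ifKO EE replicate 1 (orange circle) stands far above the other mice for Plin4, at 14.8 CPM, and for Sult1a1, at 12.8 CPM.

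Sgk1 was the member with the smallest p for housing. In SC it stood at 56.7, 55.6 and 75.2 CPM in the controls and at 55.2, 49.6 and 54.7 CPM in the CBP-ifKOs. In EE it stood at 67.4, 83.6 and 60.6 CPM in the controls and at 96.3, 68.9 and 80.7 CPM in the CBP-ifKOs. Every CBP-ifKO in EE was above every CBP-ifKO in SC, whereas the controls of both housings overlapped through SC replicate 3. The log2 fold change of EE over SC was 0.62 ± 0.13 in CBP-ifKOs (adjusted p = 0.193, edgeR, 12-mouse fit) and 0.17 ± 0.14 in controls (adjusted p = 0.999). The difference between the genotypes in this change was 0.45 ± 0.19 in edgeR (adjusted p = 0.9998), so a difference between genotypes was not shown. It was called only without a filter on low counts (adjusted p = 0.00361, edgeR), in a fit that shrank all spreads to 1 trend. Fitted in the 6 CBP-ifKOs alone, the housing change of 0.63 had an adjusted p of 0.02805. Without CBP-ifKO EE replicate 1 it was 0.49 (adjusted p = 0.421) in the 12-mouse fit. Control SC replicate 3, the control with the highest Sgk1 in SC, also had the largest sum of the immediate early genes Fos, Fosb, Arc, Egr1, Npas4 and Junb in the series, at 582 CPM against 219 and 271 CPM in the other SC controls. CBP-ifKO EE replicate 1, the mouse with the highest Sgk1, had the smallest sum, at 199 CPM. The SC CBP-ifKOs, with lower Sgk1 than every other mouse, had sums between 375 and 474 CPM. The part of these sums in the Sgk1 values was not tested.

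Sgk1 lies at chr10:21882184-21999903 (GRCm38, plus strand) and has 6 start site windows in RefSeq, the most among the 8 members with windows. One of the 6 windows held the full GRE palindrome at bases -189 to -175 from its start site. Its upstream bases are shown because only 3 of the 32851 windows of all genes (0.00913%) hold these letters, and no other window of a member did. The sequence is RefSeq's for GRCm38.p6, chr10:21993640-21993889, plus strand, and the capitals mark the palindrome.

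Sgk1: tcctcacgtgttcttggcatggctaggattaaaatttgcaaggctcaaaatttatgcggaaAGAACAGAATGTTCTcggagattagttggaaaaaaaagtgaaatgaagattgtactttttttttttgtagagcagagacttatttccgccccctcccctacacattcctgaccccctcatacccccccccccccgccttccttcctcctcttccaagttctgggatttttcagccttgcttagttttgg

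The counts are sums over all Sgk1 transcripts, so they do not tell which start site was used. For the cAMP response element, no member window held TGACGTCA, which occurs in 1.79% of windows, and its core TGACG, found on either strand in 20.8% of windows, was in 1 window each of Sgk1 and Tsc22d3. Windows were found for 8 of the 10 members, 16 in all, and Nr3c1 and Zbtb16 had none in the table. That a window lacks these letters says nothing about sites elsewhere.

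Housing changed no member past the threshold in the filtered edgeR fit of 12 mice, whereas the fit of the 6 CBP-ifKOs alone called Sgk1. In controls, 0 of 10 members had an unadjusted p under 0.05 for housing, where 4.21% of 18251 genes did, and the adjusted test with a log2 fold change over 0.5 called 0% of genes in edgeR and 7 genes in DESeq2. In CBP-ifKOs 0 of 10 were called, where 0.011% of genes were, and 4 of 10 had an unadjusted p under 0.05, against 8.59% of genes. These were Sgk1, Plin4 and Sult1a1, higher in EE, and Pdk4, lower. Averaged over genotypes, 0 of 10 were called, where 0.164% of genes were, and 3 of 10, Sgk1, Sult1a1 and Pdk4, had an unadjusted p under 0.05, beside 9.44% of genes. The difference of the housing changes between genotypes was called for 0 genes by edgeR and 0 by DESeq2, and 3.15% of genes, 574 in number, had an unadjusted p under 0.05, among them Sgk1, Plin4 and Sult1a1.

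Pdk4 was lower in EE in both genotypes by similar amounts. The controls had 13.2, 17.0 and 13.02 CPM in SC and 11.2, 13 and 12.1 CPM in EE, and the CBP-ifKOs had 12.8, 15.1 and 10.7 CPM in SC and 10.2, 10.5 and 9.98 CPM in EE. In neither genotype did the housings overlap, though in controls the gap was narrow. Groups of 2 members did not overlap between housings in controls, Nr3c2 and Pdk4, where 9.11% of genes did not, and of 2 in CBP-ifKOs, Sgk1 and Pdk4, where 15.9% did not. The log2 fold change of EE over SC for Pdk4 was -0.26 ± 0.13 in controls, -0.33 ± 0.13 in CBP-ifKOs and -0.29 ± 0.09 in the average (adjusted p = 0.296, edgeR).

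Plin4 and Sult1a1 differed from the rest in that 1 mouse set their group means. Plin4 stood at 2.37, 2.64 and 3.05 CPM in SC controls, at 2.09, 2.14 and 3.81 CPM in SC CBP-ifKOs, at 2.97, 2.28 and 1.86 CPM in EE controls and at 14.8, 3.52 and 2.88 CPM in EE CBP-ifKOs. Sult1a1 stood at 4.08, 5.06 and 6.20 CPM in SC controls, at 3.29, 3.32 and 5.24 CPM in SC CBP-ifKOs, at 5.98, 5.36 and 5.66 CPM in EE controls and at 12.8, 6.08 and 5.11 CPM in EE CBP-ifKOs. The high value of both was in CBP-ifKO EE replicate 1, and the other 2 mice of that group lay within the range of the remaining mice. Their spread within groups was accordingly large, with standard deviations of 0.71 for Plin4 and 0.42 for Sult1a1 on the log2 scale, at percentiles 97.5 and 86.7 of all tested genes. The log2 fold change of EE over SC in CBP-ifKOs was 1.39 ± 0.46 for Plin4 (adjusted p = 0.455) and 1.01 ± 0.28 for Sult1a1 (adjusted p = 0.382) in edgeR. Without CBP-ifKO EE replicate 1 these changes were 0.25 (adjusted p = 0.872) and 0.50 (adjusted p = 0.613). The genotype difference of Plin4 in EE went from 1.59 to 0.44 on the log2 scale without that mouse, and that of Sult1a1 from 0.51 to -0.01.

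The sequence before the Sult1a1 start site is shown for its GRE hexamers. It is RefSeq's for GRCm38.p6, chr7:126676419-126676668 on the minus strand, and the capitals mark AGAACA or its reverse complement TGTTCT, found on either strand in 19.0% of all windows. The single Plin4 window held neither, nor did any window of Nr3c2, Fkbp5, Pdk4 or Cdkn1a. A window of Tsc22d3 and some windows of Sgk1 also held at least 1 of them.

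Sult1a1: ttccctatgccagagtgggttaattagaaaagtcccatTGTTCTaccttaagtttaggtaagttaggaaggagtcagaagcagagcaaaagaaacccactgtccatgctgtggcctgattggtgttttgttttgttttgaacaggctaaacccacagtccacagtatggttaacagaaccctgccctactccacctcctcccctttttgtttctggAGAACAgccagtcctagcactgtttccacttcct

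Sult1a1 shares 4.05% of its exonic bases with Sgf29 and Plin4 shares 0.294% with Hdgfl2, both on the opposite strand. Whether the counting used strand is not given in the sources used here.

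The same mouse was the highest of the 12 in 5 of the 8 induced members. In CBP-ifKO EE replicate 1, Plin4 was 5.61 times, Sult1a1 2.43 times, Sgk1 1.59 times, Tsc22d3 1.44 times and Fkbp5 1.13 times the median of the other 11 mice. Zbtb16 was at 1.04 times that median, and Pdk4 and Cdkn1a were among the lowest of the 12, at 0.796 and 0.723 times. Over all 18251 tested genes this mouse was the highest in 9.59%. In 1.42% of them it stood above 2 times the median of the other 11 mice, against 0.537% to 1.36% for each other mouse. Ranked by that ratio over all tested genes in this mouse, Plin4 was number 13 and Sult1a1 number 125. A list of 20 other genes that glucocorticoids are known to induce, of which 19 were tested, had its highest value in this mouse for 6. These were Hif3a, at 2.62 times the median of the other mice, Map3k6 at 1.81 times, Arrdc2 at 1.45 times, Sdc4 at 1.31 times, Nfkbia at 1.27 times and Mertk at 1.23 times. The other 12 lay between 0.668 times for Gpd1 and 1.21 times for Mt2, apart from Dusp1. Dusp1, a phosphatase gene that is also an immediate early gene, was lower in this mouse than in any other, at 0.646 times. Of the 27 tested genes in both lists, 11 peaked in this mouse, and between 0 and 5 in each of the others. The mouse also had the smallest sum of the 6 immediate early genes, at 199 CPM. These shares describe 1 animal and carry no test.

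**Figure D3:**
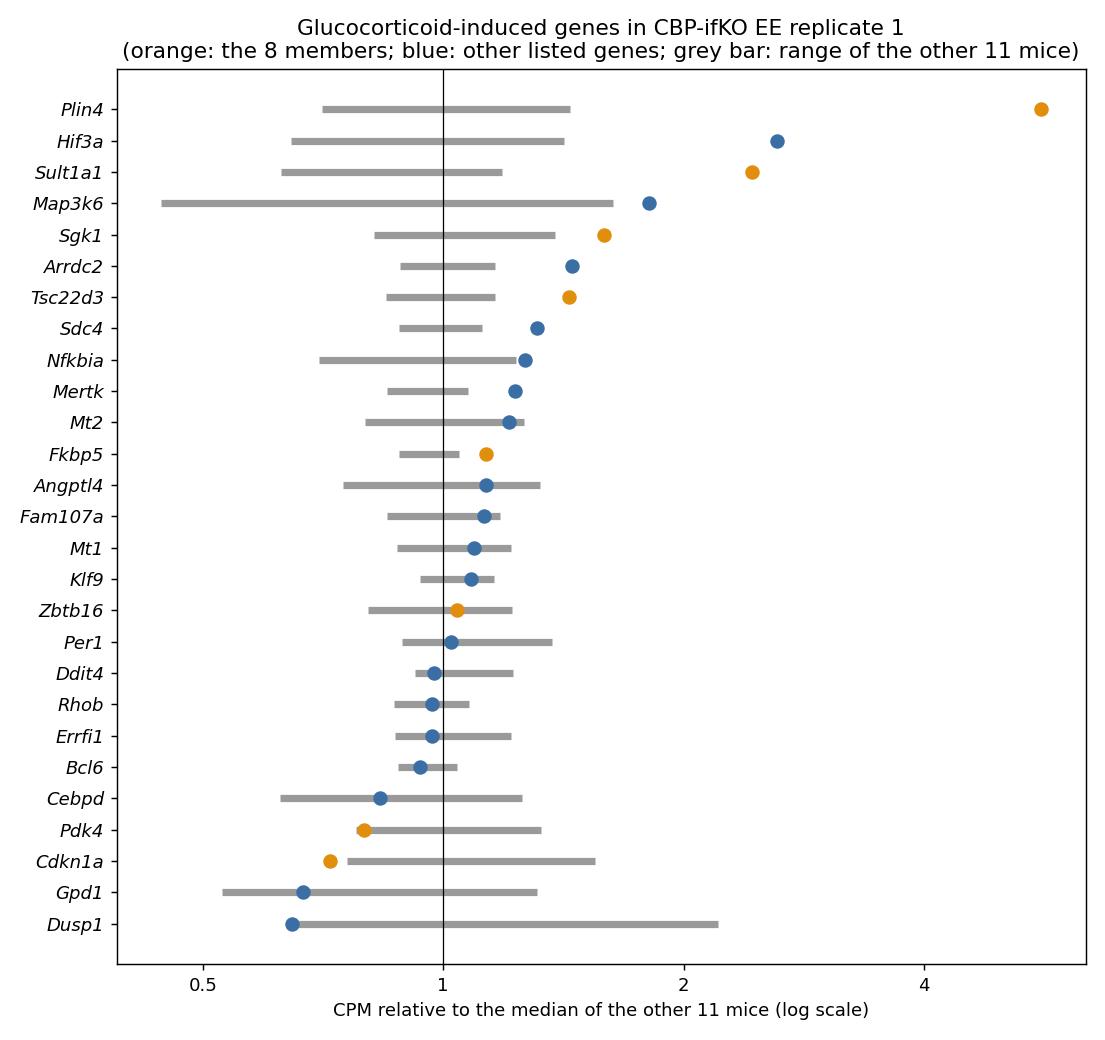
Level of each tested glucocorticoid-induced gene in CBP-ifKO EE replicate 1, relative to the median of the other 11 mice on a log axis, with grey bars for the range of those 11. Plin4, Hif3a and Sult1a1 lie farthest to the right, at 5.61, 2.62 and 2.43 times the median, Cdkn1a lies to the left of its grey bar, and Dusp1 just past the left end of its bar.

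Tsc22d3, Fkbp5 and Zbtb16 were called in no comparison by edgeR in the filtered fits of all mice. Of the alternatives, the fit without a filter called Tsc22d3 for genotype in EE (0.25, adjusted p = 0.0204) and in the average (0.21, adjusted p = 0.000648), and the average was also called without CBP-ifKO EE replicate 2 (0.31, adjusted p = 0.00876). Tsc22d3 stood at 53.2, 55.1 and 65.1 CPM in SC controls, at 69.9, 60.7 and 66.7 CPM in SC CBP-ifKOs, at 55.7, 63.3 and 62.8 CPM in EE controls and at 90.3, 54.1 and 72.9 CPM in EE CBP-ifKOs. It was the only induced member besides Plin4 with an averaged genotype difference above 0 at an unadjusted p under 0.05, of 0.22 ± 0.09 (adjusted p = 0.125, edgeR), and without CBP-ifKO EE replicate 1 the difference was 0.13 (adjusted p = 0.315). Fkbp5, often read as a sensor of glucocorticoid exposure, was with Nr3c1 the least variable within groups, with a standard deviation of 0.10 on the log2 scale. It stood at 61.5, 56.6 and 66.3 CPM in SC controls, at 60.9, 64.5 and 64.1 CPM in SC CBP-ifKOs, at 65.9, 67.3 and 67.3 CPM in EE controls and at 72.7, 64.3 and 58.1 CPM in EE CBP-ifKOs. Its averaged genotype difference was 0.00 with a 95% interval from -0.11 to 0.11 on the log2 scale, and its averaged housing difference was 0.08, from -0.03 to 0.20. Zbtb16 stood at 46.1, 57.0 and 43.1 CPM in SC controls, at 49.3, 44.9 and 52.9 CPM in SC CBP-ifKOs, at 37.6, 56.2 and 49.3 CPM in EE controls and at 48.6, 46.7 and 37.9 CPM in EE CBP-ifKOs. Its values overlapped between all groups, and the averaged genotype difference was -0.04, from -0.24 to 0.16.

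**Figure D4:**
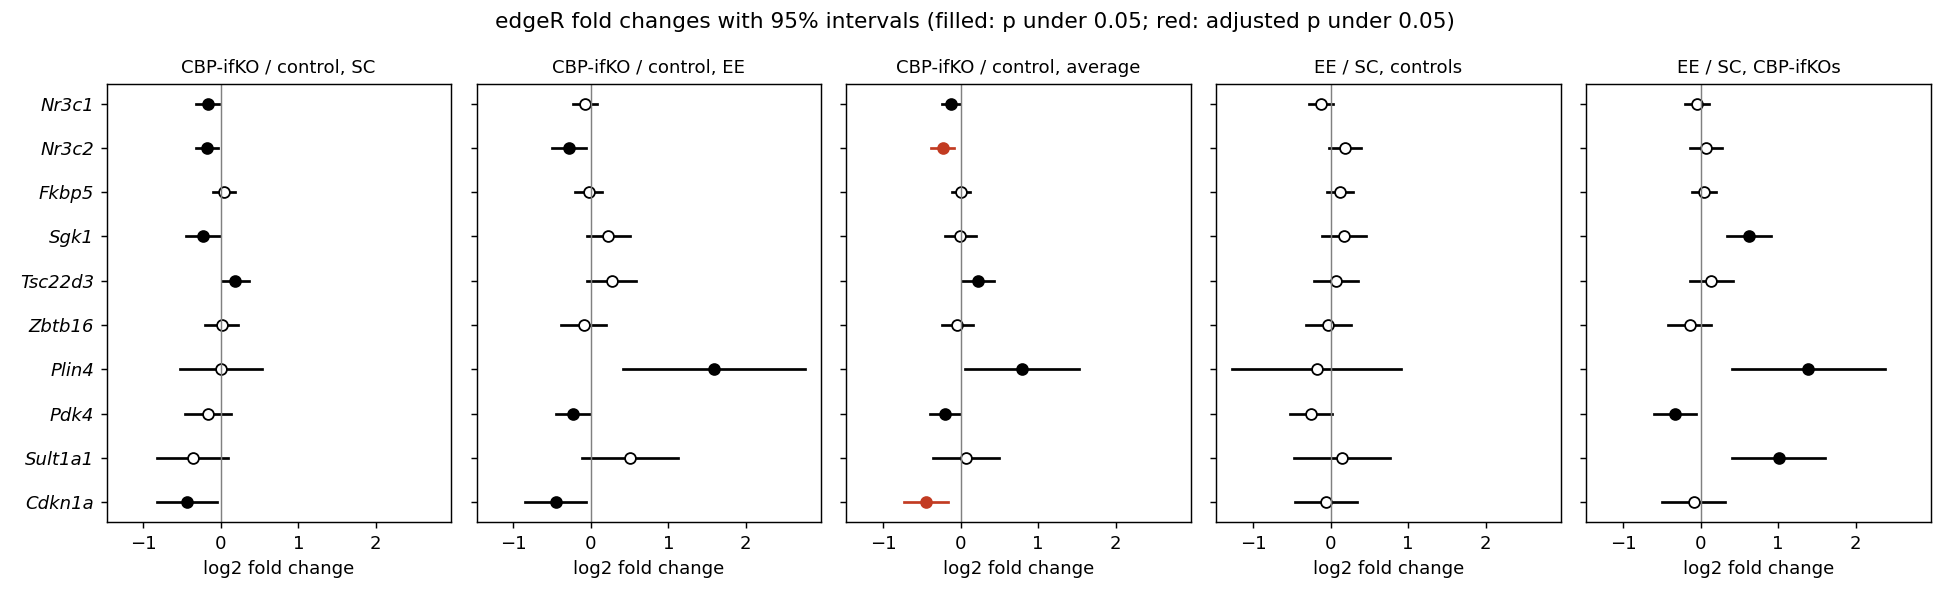
Log2 fold changes of the 10 members with 95% intervals in 5 comparisons, from edgeR. Filled points had an unadjusted p under 0.05, and the red points, Nr3c2 and Cdkn1a in the average over housings, had an adjusted p under 0.05. The interval of Fkbp5 in that average runs from -0.11 to 0.11, and that of Plin4 in EE from 0.42 to 2.77.

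Members were compared with each other mouse by mouse after the group means had been removed. Of the 45 pairs, 4 had an exact permutation p under 0.05 and 0 passed Benjamini-Hochberg adjustment over the 45. Plin4 and Sult1a1 were the closest pair, with Pearson's r = 0.94 (exact permutation p = 0.00231, adjusted p = 0.104) and Spearman's rho = 0.87 (exact permutation p = 0.00617, adjusted p = 0.139) over 12 mice. The r was 0.85 without the 2 mice farthest from the median of Plin4, and 0.89 without CBP-ifKO EE replicate 1. Zbtb16 and Cdkn1a went in opposite directions, with r = -0.90 (exact permutation p = 0.00617, adjusted p = 0.139), rho = -0.92 (exact permutation p = 0.00309, adjusted p = 0.139) and r = -0.86 without the 2 mice farthest from the median of Zbtb16. Sgk1 and Tsc22d3 gave r = 0.77 (exact permutation p = 0.0216, adjusted p = 0.324) and rho = 0.75 (exact permutation p = 0.0370, adjusted p = 0.417), and r was 0.82 without the 2 mice farthest from the median of Sgk1. Nr3c1 and Fkbp5 gave r = -0.52 (exact permutation p = 0.0424, adjusted p = 0.477) and rho = -0.51 (exact permutation p = 0.133, adjusted p = 0.706), and r was -0.53 without the 2 mice farthest from the median of Nr3c1. The receptors, which did not reach p under 0.05 by r, gave r = 0.44 (exact permutation p = 0.0880, adjusted p = 0.660) and rho = 0.73 (exact permutation p = 0.0147, adjusted p = 0.220), and r was 0.30 without the 2 mice farthest from the median of Nr3c1.

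Among 18241 other tested genes, those whose deviations from the group means were most like Nr3c1 over the 12 mice were Cdkn1b, with r = 0.96, and Wwp1, with r = 0.96. For Nr3c2 they were Col4a1, with r = 0.96, and Acaca, with r = 0.95. For Fkbp5 they were Rap2b, with r = 0.98, and Rab26, with r = 0.92, and for Sgk1 they were Fosl2, with r = 0.95, and Jag1, with r = 0.93. These are the most similar of many genes over few mice, and they are given as a description only.

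Genes that surround the receptors were examined by lists. Of 11 receptor chaperones and coregulators, 2 fell and none rose in CBP-ifKOs in the average over housings, where 10.3% of all genes fell. They were Nrip1, which encodes the corepressor RIP140 (log2 fold change -0.19 ± 0.06, adjusted p = 0.0377, edgeR), and Hsp90ab1, the constitutive HSP90 (-0.14 ± 0.03, adjusted p = 0.00303). The median over the 11 genes was -0.04, beside 0.00 for all genes. Crhbp, which encodes a protein that binds corticotropin-releasing hormone, was the 1 of 4 genes of the CRH system that was called, and it fell in SC (-0.52 ± 0.09, adjusted p = 0.00829), in EE (-0.44 ± 0.10, adjusted p = 0.0324) and in the average (-0.49 ± 0.08, adjusted p = 0.000379). Its levels were 40.9, 32.4 and 39.9 CPM in SC controls, 25.3, 24.8 and 28.6 CPM in SC CBP-ifKOs, 45.6, 38.7 and 40.1 CPM in EE controls and 33.0, 25.7 and 32.3 CPM in EE CBP-ifKOs, with no overlap between genotypes in either housing. Of 4 tested genes of corticosteroid metabolism and transport, Abcb1b, an efflux transporter that takes corticosteroids, rose in the average (0.35 ± 0.09, adjusted p = 0.0140), where 6.64% of genes rose. Hsd11b1, which regenerates active corticosterone, stood between 24.7 and 37.0 CPM over the 12 mice and was not called.

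Of the 19 tested genes of the list of other glucocorticoid-induced genes, 1 fell and none rose in the average over housings, beside 10.3% and 6.64% of all genes. This was Gpd1, a glycerol-phosphate dehydrogenase that is abundant in oligodendrocytes, with log2 fold changes of -0.96 ± 0.10 in SC (adjusted p = 0.000350), -0.76 ± 0.09 in EE (adjusted p = 0.000920) and -0.86 ± 0.07 in the average (adjusted p = 1.89e-06, edgeR). Its controls lay between 102 and 134 CPM and its CBP-ifKOs between 54.1 and 73.7 CPM. Nfkbia, which encodes an inhibitor of NF-kappa-B, stood at 18.1, 19.3 and 18.1 CPM in EE controls and at 24.5, 21.3 and 23.8 CPM in EE CBP-ifKOs, and it rose there (0.33 ± 0.08, adjusted p = 0.0460, edgeR). In SC its difference was 0.05 ± 0.16 (adjusted p = 0.889), and the test of the difference between the housings gave 0.27 ± 0.20 (adjusted p = 0.9998). The median log2 fold change of the 19 genes was -0.03 in the average over housings and 0.05 for housing averaged over genotypes.

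Markers of cell types also differed between the genotypes. In the average over housings, Nrgn fell by 0.52 on the log2 scale, more than Nr3c2 and Cdkn1a did. Sst fell by 0.33 and Slc1a3 by 0.21, both less than Cdkn1a. Ttr fell by 1.70 in SC, and its averaged value of -2.99 includes the library that stood apart. In EE the other controls had 19.6 and 8.81 CPM of Ttr and the CBP-ifKOs 32.3, 4.05 and 22.8 CPM, so without that library the EE groups overlapped. In all, 2 of 4 excitatory neuron markers fell (Nrgn and Neurod6), as did 1 of 5 interneuron markers, 1 of 5 astrocyte markers, 2 of 5 microglia markers and 1 of 4 tested choroid plexus markers (Ttr, with that library included), and 0 of 5 endothelial and 0 of 5 oligodendrocyte markers did, beside 10.3% of all genes. Slc17a7 and Prox1 were not called. In SC their means were 1239 and 103 CPM in controls and 1276 and 107 CPM in CBP-ifKOs. In EE they were 1281 and 102.5 CPM in controls and 1255 and 97.9 CPM in CBP-ifKOs. The summed excitatory markers ranged from 2176 to 2508 CPM in SC controls, from 2101 to 2265 CPM in SC CBP-ifKOs, from 2384 to 2638 CPM in EE controls and from 2044 to 2228 CPM in EE CBP-ifKOs. The summed astrocyte markers ranged from 1477 to 1653 CPM, from 1425 to 1446 CPM, from 1445 to 1497 CPM and from 1292 to 1365 CPM in the same order of groups. For interneuron markers the sums were 830 to 893, 771 to 808, 846 to 920 and 794 to 824 CPM. For microglia markers they were 292 to 294, 263 to 285, 277 to 300 and 256 to 265 CPM. The genotypes overlapped for summed oligodendrocyte markers in both housings and for summed endothelial markers in EE only. None of the tested markers was at 0 in any mouse. Their part in the differences of Nr3c2 and Cdkn1a was not tested.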

How the data were processed

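Hippocampal RNA of 12 mice was sequenced by the authors in 2 runs per mouse as 50-base single-end reads on an Illumina HiSeq. The authors trimmed the reads (Trim Galore 0.6.4), aligned them with STAR 2.6.1 to mm10 (GRCm38), kept those with a mapping quality above 10 and assigned them to exons with Rsubread and an Ensembl annotation, and deposited raw counts per gene with both runs of a mouse merged. The deposited gene lengths (in bases) were used to express levels per kilobase. Multi-mapped reads are thus largely absent, and the counts sum over transcripts.

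Counts were analysed with edgeR 4.0.16 in R 4.3.3, with its expression filter, TMM scaling, the quasi-likelihood test and Benjamini-Hochberg adjustment at 0.05 over all genes tested. Genotypes were compared within a housing in fits of 6 mice, and all else in a fit of 12. Housing within a genotype also needed a log2 fold change over 0.5. A prior count of 2 was used for log2 values. The receptor ratio and correlations used exact permutation tests. The alternatives were DESeq2 1.42.0, its size factors, 2 other filters, halved CBP-ifKO counts, a replicate block, other sets of mice and leaving out each mouse. The edgeR comparisons were tested on simulated counts, which were not made even for the CBP-ifKO libraries. The receptor ratio, the correlations and DESeq2 were not part of that simulation.

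The members and lists were chosen with earlier results of these data known. The genes named are the 10 members, list genes called in a comparison, and the 2 genes most like Nr3c1, Nr3c2, Fkbp5 and Sgk1. Other genes of the lists were named after their values were seen, and 2 genes were left out of the lists and are not reported here. The 3 mice of a group are separate animals. Depth was between 26874015 and 37448388 counts, so a floor of 3 counts was between 0.0774 and 0.116 CPM, for counting error only. Positions come from GENCODE and sequences from RefSeq, both for GRCm38.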

Additional observations from a re-analysis of the deposited data

How the results depend on the processing

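Over 18 alternatives each, Nr3c2 remained called in the genotype average in 14 and Cdkn1a in 12, and the lost calls all came from leaving out a mouse. The number of members called there ranged from 0 to 3 when 1 mouse was left out, and it was 0 without CBP-ifKO EE replicate 1. With no filter on low counts, the number of members called was 1 for genotype in SC, 4 in EE and 5 in the average, 3 for housing in CBP-ifKOs and 4 in the average, and 2 for the difference of the housing changes. That fit held 35081 genes and shrank all spreads to 1 trend. DESeq2's Wald test called 1 member for genotype in EE, Nr3c2, and a fit of the 6 CBP-ifKOs alone called 1 for housing, Sgk1. Over all genes, the calls moved without the filter from 968 to 1512 (genotype, SC), 805 to 1677 (genotype, EE), 0 to 80 (housing, controls), 2 to 121 (housing, CBP-ifKOs), 30 to 334 (housing, average) and 0 to 110 (difference of the housing changes). DESeq2 gave 1262, 7, 20 and 156 for the second to the fifth of these. Fits to another set of mice gave 1293 (genotype, EE), 1 (housing, controls) and 12 (housing, CBP-ifKOs), and halved counts gave 0 for the last. Leaving out 1 mouse gave 399 to 1908 (genotype, SC), 285 to 1016 (genotype, EE), 0 to 3, 0 to 6 and 7 to 42 (housing, in the same order).

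With the replicate block, 2 members were called for genotype in EE, Nr3c2 (-0.29, adjusted p = 0.0203) and Plin4 (1.30, adjusted p = 0.01875), and no other count of members changed. Over all genes it gave 10 calls for housing in CBP-ifKOs and 48 in the average. Mice of the same number did not all deviate together, with correlations from -0.05 to 0.30 over the 12 same-number pairs of neighbouring groups. Pairs of different numbers ran from -0.25 to 0.14. Between Control EE and CBP-ifKO EE, the same-number pairs (0.11, 0.12 and 0.03) all lay above the different-number pairs (-0.13 to 0.006). The main fits took the numbers as names only, and whether they mark blocks was not tested.

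Values near 0 changed sign. In SC, the genotype difference of Plin4 was -0.0038 without the filter and -0.0331 with the replicate block. In the average, that of Fkbp5 was -0.0121 without the filter and -0.0018 with halved CBP-ifKO counts, and that of Sgk1 was 0.0015 with a filter of 1 CPM in 3 mice. The cause was not tested.

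When 1 mouse was left out, log2 differences that changed sign in at least 1 fit had these ranges. For genotype in SC they were -0.0175 to 0.1017 (Fkbp5), -0.0643 to 0.1397 (Zbtb16) and -0.3443 to 0.1634 (Plin4). For genotype in EE they were -0.1195 to 0.0443 (Fkbp5), -0.2396 to 0.038 (Zbtb16) and -0.0115 to 0.7396 (Sult1a1). For the genotype average they were -0.0438 to 0.0381 (Fkbp5), -0.0739 to 0.0767 (Sgk1), -0.118 to 0.0228 (Zbtb16) and -0.1919 to 0.1838 (Sult1a1). For housing in controls they were -0.1645 to 0.1165 (Zbtb16) and -0.2239 to 0.1468 (Cdkn1a). For housing in CBP-ifKOs they were -0.0123 to 0.1754 (Nr3c2), -0.0453 to 0.118 (Fkbp5), -0.0514 to 0.3118 (Tsc22d3) and -0.2244 to 0.0179 (Cdkn1a), and for the housing average -0.1561 to 0.0305 (Cdkn1a). For the difference of the housing changes they were -0.1181 to 0.2451 (Tsc22d3), -0.2591 to 0.022 (Zbtb16), -0.2072 to 0.0539 (Pdk4) and -0.2326 to 0.1355 (Cdkn1a). The log2 receptor ratio between genotypes in SC ranged from -0.0772 to 0.0526, and that between housings, averaged over genotypes, from 0.1656 to 0.255.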
